A study of Mus musculus with 4 samples.

Results

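The 10 regulators described here are the PGC1 coactivators Ppargc1a, Ppargc1b and Pprc1, the nuclear factors Nrf1 and Gabpa, and the mitochondrial DNA factors Tfam, Tfb2m, Polrmt, Polg and Twnk. They were chosen by symbol for their known roles, with earlier results of these data known, so counts among them are descriptions. All 10 were found among the 55387 rows of the deposited values, each on 1 row. RNA sequencing was performed on brown adipose tissue (BAT) of 4 male mice aged 15 weeks on a C57BL/6 background. The 2 controls were Sox4f/f littermates, which the sample labels call wild type, and they carry the floxed Sox4 alleles without Cre. The other 2 mice were Sox4-MKO, which carry the same floxed alleles together with Myf5-Cre. Myf5 is active in the precursors that give rise to both brown adipocytes and skeletal muscle, so a Cre expressed from it is not restricted to brown fat. Each mouse gave 1 library, and all levels are in FPKM, that is, sequenced fragments divided by transcript length and by the library's mapped fragments.

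Building a mitochondrion takes proteins from both the nuclear and the mitochondrial genome. The PGC1 coactivators bind no DNA themselves and raise transcription by docking on factors such as the nuclear respiratory factors, the estrogen-related receptors and the PPARs. Those factors in turn switch on nuclear genes for the respiratory chain and for the enzymes that copy and transcribe mitochondrial DNA (mtDNA). Brown fat is packed with mitochondria, and Ppargc1a is known in this tissue as the coactivator induced by cold and β-adrenergic signalling.

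The targeted gene was checked first. Sox4, the transcription factor that the Cre is meant to delete, measured 1.98 and 1.06 FPKM in the Sox4f/f mice and 0.981 and 3.06 in the Sox4-MKO mice. The genotypes overlapped, and the highest value was in a library labelled Sox4-MKO (log2 fold change 0.20, SE 0.43, limma adjusted p = 0.843). Cells outside the Myf5 lineage keep the gene, but their part in these values was not tested. Sox4 lies on about 62 to 249 estimated fragments per library, so the libraries are called Sox4-MKO below by their labels alone. The study reports much less SOX4 protein in BAT of other, younger Sox4-MKO mice by western blot. Sox4 also shares 2616 exonic bases with the opposite-strand lincRNA Gm26735, and since it is not known whether counting used strand, its value is a weak check of the deletion. Depth was estimated at 12243813 to 16943256 fragments per library, and between 18593 and 19389 rows were above 0. Skeletal muscle markers stood apart between libraries and are given with the results they accompany.

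In Sox4-MKO BAT, 4 of the 10 regulators were lower and none was higher. Ppargc1a was 2.58-fold lower, Ppargc1b 2.24-fold, the mitochondrial RNA polymerase gene Polrmt 1.5-fold and the mtDNA polymerase gene Polg 1.37-fold. These 4 are the genes at an unadjusted p under 0.05 in limma, fitted over 12877 genes on log2(FPKM + 1), and a gene below that threshold is said to be called. They make 40.0% of the 10, against 8.28% of all tested genes called lower (1066 genes) and 7.95% called higher (1024 genes). Rescaling without the mitochondrially encoded genes and Ucp1 turned that split of all genes to 745 lower and 1322 higher, and it left 4 regulators lower. After Benjamini-Hochberg adjustment, limma called 0% of all genes, since the smallest adjusted p was 0.191, whereas 2090 genes had an unadjusted p under 0.05. With 2 mice against 2, the smallest two-sided exact permutation p for any single gene is 0.333, so the p-values rest on the spread that limma shares across genes.

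**Figure D1:**
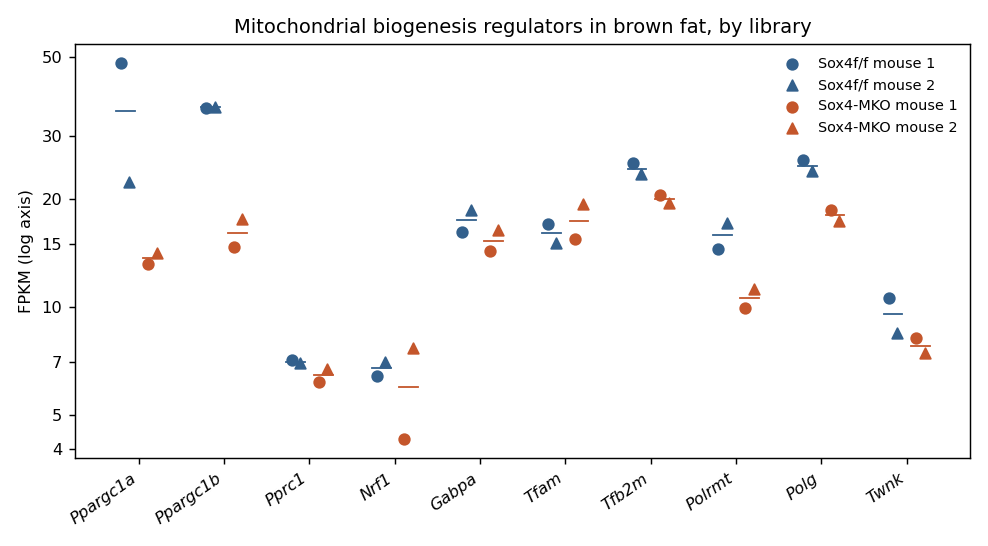
FPKM of the 10 regulators on a log axis, with 1 point per mouse, blue for Sox4f/f, red for Sox4-MKO, circles for mouse 1, triangles for mouse 2 and a short line for each group mean. Both Sox4-MKO points lie under both Sox4f/f points for 7 genes, and the colours overlap for Nrf1, Gabpa and Tfam.

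Ppargc1a encodes PGC1α, and lies at chr5:51454250-51567726 on the minus strand of GRCm38 (GENCODE M21). It measured 48.2 and 22.4 FPKM in Sox4f/f mice 1 and 2, and 13.2 and 14.2 FPKM in Sox4-MKO mice 1 and 2. The controls differed from each other by more than the lower control differed from the Sox4-MKO mice, yet the genotypes did not overlap. The mean fell by 61.2%, from 35.3 ± 18.3 FPKM to 13.7 ± 0.739 FPKM (mean ± SD, 2 mice each). The log2 fold change was -1.21 (SE 0.37, 95% interval -2.19 to -0.22, limma adjusted p = 0.254). Sox4f/f mouse 1 set much of this size, because without it the log2 fold change was -0.67 and without Sox4f/f mouse 2 it was -1.74, both still called. The call was lost when either Sox4-MKO mouse was left out, with log2 fold changes of -1.16 without mouse 1 and -1.26 without mouse 2.

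Ppargc1b encodes PGC1β, a coactivator of the same family that also drives respiratory genes, at chr18:61298136-61400431 on the minus strand. It measured 36.0 and 36.3 FPKM in the Sox4f/f mice and 14.7 and 17.6 FPKM in the Sox4-MKO mice. The 2 controls lay almost on top of each other, at 36.2 ± 0.229 FPKM, and both Sox4-MKO mice lay far below them, at 16.2 ± 2.00 FPKM. The mean fell by 55.3%, with a log2 fold change of -1.12 (SE 0.14, 95% interval -1.49 to -0.75, limma adjusted p = 0.191). Ppargc1b kept an unadjusted p under 0.05 in all 15 alternative settings, at log2 fold changes between -1.24 and -1.0. Its interval is the narrower of the pair.

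Pprc1 encodes the third family member, PRC, known as a coactivator of Nrf1 that responds to growth signals rather than to cold, at chr19:46044886-46072915 on the plus strand. It measured 7.09 and 7.00 FPKM in the Sox4f/f mice and 6.17 and 6.71 FPKM in the Sox4-MKO mice. Both Sox4-MKO values were under both controls, but the mean only decreased by 8.59%. The log2 fold change of -0.11 (SE 0.15, limma adjusted p = 0.723) had a 95% interval of -0.50 to 0.28, which does not reach the point estimate of either relative. In each library the ratio of Pprc1 to Ppargc1b was 0.197 and 0.193 in Sox4f/f and 0.418 and 0.382 in Sox4-MKO, a ratio looked at after the single values were seen. Pprc1 shares 177 exonic bases with the opposite-strand gene Ldb1, at 16.8 to 22.3 FPKM.

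The ratio of Ppargc1a to Ppargc1b, in which the scaling of the library cancels, was 1.34 and 0.616 in Sox4f/f and 0.893 and 0.808 in Sox4-MKO. The genotypes overlapped, with both Sox4-MKO mice between the 2 controls. The spread of the controls in this ratio is that of Ppargc1a. Their profiles over the 4 libraries had different neighbours. By Euclidean distance of centred log2(FPKM + 1), the closest genes to Ppargc1b were Pakap (distance 0.128), Ppp1r13l (0.162) and Nectin2 (0.18). Nectin2, a cell adhesion protein, measured 39.7, 39.6, 18.6 and 18.7 FPKM in the order Sox4f/f 1 and 2, Sox4-MKO 1 and 2. The closest to Ppargc1a were the low genes Gm49356, Gm38329 and Trbv3, of which Gm38329 and Trbv3 are listed at 0 in both Sox4-MKO libraries. Only 4 libraries stand behind each profile, which makes the distance a description.

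**Figure D2:**
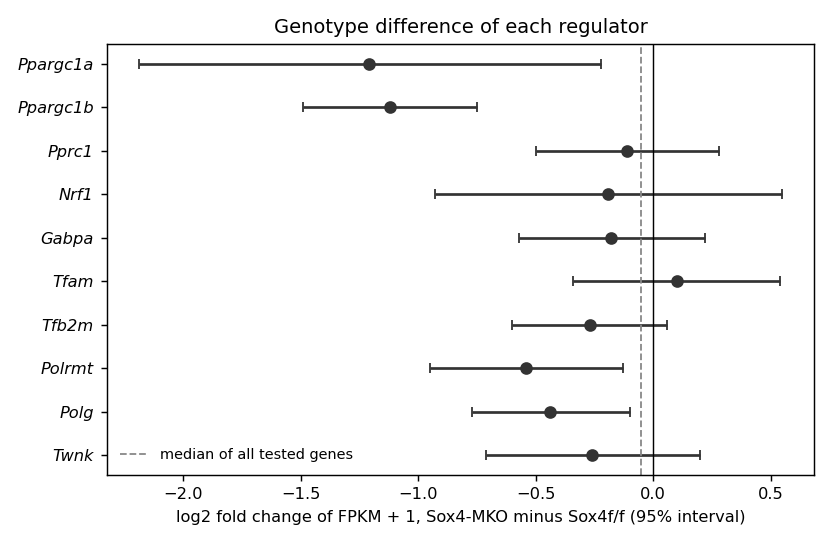
Log2 fold change of FPKM + 1 (Sox4-MKO minus Sox4f/f) of each regulator as a point with its 95% limma interval, the solid line at 0 and the dashed line at the median of all tested genes. The intervals of Ppargc1a, Ppargc1b, Polrmt and Polg lie wholly below 0, and Tfam alone has its point above 0.

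Neither nuclear respiratory factor gene was called, and how their fold changes differ from those of the coactivators was not tested. Nrf1, a DNA-binding activator of respiratory and mtDNA maintenance genes at chr6:30047988-30153458 on the plus strand, measured 6.43 and 7.04 FPKM in Sox4f/f and 4.27 and 7.69 FPKM in Sox4-MKO. The lowest and the highest value were both in Sox4-MKO mice, so the genotypes overlapped. Its log2 fold change was -0.19 (SE 0.28, 95% interval -0.93 to 0.55, limma adjusted p = 0.754), and it ran from -0.55 without Sox4-MKO mouse 2 to 0.17 without Sox4-MKO mouse 1, neither of which was called. Nrf1 was the lowest of the 10 in mean level, on 105 to 245 estimated fragments per library.

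Gabpa encodes the DNA-binding subunit of nuclear respiratory factor 2, an ETS factor, at chr16:84834925-84863779 on the plus strand. It measured 16.3 and 18.7 FPKM in Sox4f/f and 14.3 and 16.4 FPKM in Sox4-MKO, with overlap between the genotypes. The log2 fold change was -0.18 (SE 0.15, limma adjusted p = 0.585), and its 95% interval of -0.57 to 0.22 leaves room for a drop the size of that of Polg. Its exons share 397 bases with the opposite-strand gene Atp5j, a far more abundant transcript at 212.1 to 307.6 FPKM. Whether the counting used strand is not known, so reads in the shared bases may belong to either gene.

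Transcription of mtDNA needs Tfam, Tfb2m and Polrmt together, and of these 3 genes Polrmt was called lower. Their 95% intervals overlap, and the differences between them were not tested. Tfam, which bends and packages mtDNA and opens its promoters, lies at chr10:71225464-71238280 on the minus strand. It measured 17.1 and 15.2 FPKM in Sox4f/f and 15.5 and 19.4 FPKM in Sox4-MKO. The genotypes overlapped and the log2 fold change was 0.10 (SE 0.17, 95% interval -0.34 to 0.54, limma adjusted p = 0.787). It was -0.05 without Sox4-MKO mouse 2 and positive in the other 14 alternative settings.

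Tfb2m encodes the factor that melts the promoter for the polymerase, at chr1:179528055-179546267 on the minus strand. It measured 25.3 and 23.5 FPKM in Sox4f/f and 20.6 and 19.5 FPKM in Sox4-MKO. Both Sox4-MKO values were lower, and the mean differed by -17.7%, with a log2 fold change of -0.27 (SE 0.12, 95% interval -0.60 to 0.06, limma adjusted p = 0.366).

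Polrmt, the single-subunit RNA polymerase of mitochondria that also makes the primers for mtDNA replication, lies at chr10:79736123-79746581 on the minus strand. It measured 14.5 and 17.2 FPKM in Sox4f/f and 9.96 and 11.2 FPKM in Sox4-MKO, without overlap. Its mean fell by 33.3%, from 15.9 ± 1.91 to 10.6 ± 0.892 FPKM (2 mice each). The log2 fold change was -0.54 (SE 0.16, 95% interval -0.95 to -0.13, limma adjusted p = 0.243). Its call was lost without Sox4-MKO mouse 1, at a log2 fold change of -0.46, and without Sox4f/f mouse 2, at -0.42.

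The replication enzymes Polg and Twnk were both lower in both Sox4-MKO mice. Polg, the catalytic subunit of the mtDNA polymerase, lies at chr7:79446231-79466362 on the minus strand. It measured 25.7 and 24.0 FPKM in Sox4f/f and 18.7 and 17.4 FPKM in Sox4-MKO, and the mean fell by 27.2%, from 24.9 ± 1.20 to 18.1 ± 0.928 FPKM. The log2 fold change was -0.44 (SE 0.13, 95% interval -0.77 to -0.10, limma adjusted p = 0.242). It stayed between -0.49 and -0.37 in all 15 alternative settings, but its call was lost when Sox4-MKO mouse 2, Sox4f/f mouse 1 or Sox4f/f mouse 2 was left out (-0.39, -0.39 and -0.49). The opposite-strand gene Fanci shares 921 exonic bases with Polg but measured at most 0.17 FPKM.

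Twnk encodes Twinkle, the helicase that unwinds mtDNA ahead of the polymerase, at chr19:45005663-45012762 on the plus strand. It measured 10.6 and 8.48 FPKM in Sox4f/f and 8.19 and 7.42 FPKM in Sox4-MKO. The groups did not overlap, but the gap between Sox4f/f mouse 2 and Sox4-MKO mouse 1 was smaller than the spread of the controls, and the log2 fold change was -0.26 (SE 0.17, 95% interval -0.71 to 0.20, limma adjusted p = 0.501). Twnk shares 507 exonic bases with the opposite-strand gene Mrpl43, at 24.4 to 27.1 FPKM. The ratio of Polg to Twnk was 2.42 and 2.83 in Sox4f/f and 2.29 and 2.35 in Sox4-MKO.

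The promoters of these genes were searched for the letters that the nuclear respiratory factors are known to bind. In the RefSeq windows of GRCm38.p6, 250 bases before to 50 after each annotated start, GCATGCGC (a core of the NRF1 motif) or its reverse complement occurs in 2.71% of 32851 windows, and CCGGAAGT (an ETS motif of GABPA) or its reverse complement in 3.89%. Windows were given for 9 of the 10 genes, 11 windows in all. Each of the 5 mtDNA factors held 1 of the motifs, whereas the windows of Ppargc1a, Pprc1, Nrf1 and Gabpa held neither. The 30 bases around the 4 matches upstream of a start are shown, since they set genes that were lower beside genes that were not. They run 5′ to 3′ along the gene, with the match in capitals.
Polg, GABPA motif, chr7:79466293-79466322, minus strand: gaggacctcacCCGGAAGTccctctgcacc
Tfam, GABPA motif, chr10:71238073-71238102, minus strand: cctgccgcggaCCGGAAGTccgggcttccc
Twnk, GABPA motif as its reverse complement, chr19:45006436-45006465, plus strand: actaaccggtgACTTCCGGttccggggttg
Polrmt, NRF1 core as its reverse complement, chr10:79746696-79746725, minus strand: agagtatttctGCGCATGCtctcttgccgc

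Counted from 0 at the RefSeq start, the matches lie at -38 to -31 in Polg, -47 to -40 in Tfam, -111 to -104 in Twnk and -133 to -126 in Polrmt. GENCODE places the start of some transcripts further upstream, so the stretches of Polg and Tfam fall in an annotated first-exon UTR. That of Twnk falls in the gene outside its exons, with 7 bases in an exon of Mrpl43, and that of Polrmt lies before the gene. The match in Tfb2m is the NRF1 core and lies after the start, at 13 to 20. Polg and Tfam carry the same GABPA letters at similar distances and their means differed from Sox4f/f by -27.2% and 8.07%. Polrmt and Tfb2m carry the NRF1 core, and their means differed by -33.3% and -17.7%. A match to 8 letters is no evidence of binding in these mice.

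Order among the 10 changed with genotype. FPKM is per length, so levels can be set side by side within a library. In Sox4f/f the mean levels ran from Ppargc1b and Ppargc1a (36.2 and 35.3 FPKM) through Polg and Tfb2m (24.9 and 24.4), Gabpa, Tfam and Polrmt (17.5, 16.1 and 15.9) and Twnk (9.55) to Pprc1 and Nrf1 (7.04 and 6.74). Within each of these sets the 2 mice of neighbouring genes overlapped. Ppargc1a also overlapped Polg and Tfb2m, because of its low value in Sox4f/f mouse 2. In Sox4-MKO the order became Tfb2m (20.1), Polg (18.1), Tfam (17.4), Ppargc1b (16.2), Gabpa (15.4), Ppargc1a (13.7), Polrmt (10.6), Twnk (7.81), Pprc1 (6.44) and Nrf1 (5.98). From Polg to Gabpa each neighbour overlapped the next, as did Pprc1 and Nrf1.

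Among all tested genes, Ppargc1a moved from percentile 84.1 to 63.2 of mean FPKM and Ppargc1b from 84.4 to 67.9, while Tfam went from 67.2 to 70.0. The ratio of Tfam to Ppargc1b was 0.476 and 0.417 in Sox4f/f and 1.05 and 1.10 in Sox4-MKO. That of Tfb2m was 0.702 and 0.648 against 1.40 and 1.11, and that of Polrmt 0.403 and 0.474 against 0.676 and 0.638. All 3 ratios were higher in both Sox4-MKO mice, although Polrmt itself was lower there. Ppargc1b was thus lower by more than each of the 3 transcription genes in every pairing of a Sox4-MKO with a Sox4f/f mouse, at the smallest permutation p of 0.333 that this exact design allows.

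Both Sox4-MKO mice were under both controls for 7 of the 10 genes (70.0%), against 29.6% of all tested genes, and above both for 0, against 21.7%. The fold change was negative for 9 of 10, with a median of -0.26 beside -0.05 for all tested genes. How many genes were called depended on single libraries. Leaving out Sox4-MKO mouse 1 kept 2 (Ppargc1b and Polg), and leaving out Sox4-MKO mouse 2 kept 2 (Ppargc1b and Polrmt). Leaving out Sox4f/f mouse 1 kept 3 (Ppargc1a, Ppargc1b and Polrmt), and leaving out Sox4f/f mouse 2 kept 2 (Ppargc1a and Ppargc1b). Ppargc1b was in every one of these sets.

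**Figure D3:**
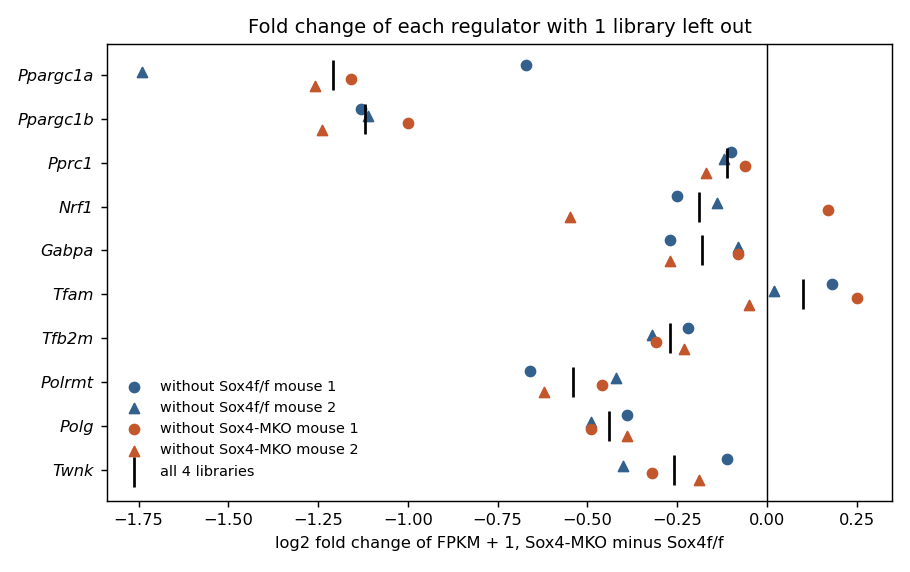
Log2 fold change of FPKM + 1 of each regulator from all 4 libraries (black tick) and after leaving out 1 library (blue for a Sox4f/f and red for a Sox4-MKO mouse, circle for mouse 1, triangle for mouse 2). Ppargc1a spreads from -1.74 to -0.67, Ppargc1b only from -1.24 to -1.0, and Nrf1 and Tfam cross 0.

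Further genes of the pathway were taken from fixed lists. Beside Polg and Twnk, 14 other genes of mtDNA replication and the nucleoid were tested, of which 2 were lower and 0 higher, with a median log2 fold change of 0.05. The 2 are 14.3% of this short list beside 8.28% of all genes. Atad3a, a membrane ATPase tied to nucleoids, measured 74.8 and 62.7 FPKM in Sox4f/f and 44.8 and 41.4 FPKM in Sox4-MKO (log2 fold change -0.66), and the nuclease gene Endog differed by -0.57. The accessory polymerase subunit Polg2 (0.08) and the single-strand binding protein Ssbp1 (0.16), which work beside Polg and Twnk at the fork, were not called, and both were named after their values were seen. The count of 2 became 1 without Sox4f/f mouse 1 or Sox4-MKO mouse 2, and the median was -0.11 after quantile normalization and -0.36 with an averaged FPKM above 5. Of 12 genes that supply nucleotides to mtDNA, 2 were lower (16.7%, also beside 8.28%), Sucla2 (-0.77) and Suclg1 (-0.74). Both encode succinyl-CoA ligase subunits and so belong to the TCA cycle as well. The nucleoside kinases Tk2 (-0.21) and Dguok (-0.04), also named after their values were seen, were not called.

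Of 26 other genes for mtDNA transcription and RNA handling, 3 were lower and 0 higher, at a median of -0.19. They were Tbrg4 (-0.65), a FASTK family protein, the termination-factor relative Mterf3 (-0.39) and the mRNA stabiliser Lrpprc (-0.36). The count lower moved clearly, up or down, in 7 of the 15 alternative settings, some of them with all libraries kept. These 3 make 11.5% of the list, near the 8.28% of all genes, and 1 was left without Sox4f/f mouse 1 or without Sox4f/f mouse 2. Among the 15 mitochondrially encoded genes, only 5 are listed above 0 in all 4 libraries, and 6 are listed at 0 in all 4, which can be a failed estimate rather than a lack of RNA. Of the 9 that entered the test, 0 were called. Among these 9, 4 are listed above 0 only in Sox4f/f mouse 1, so their 0 values include a control and can also be failed estimates. The ribosomal RNA mt-Rnr2 measured 12080 and 12710 FPKM in Sox4f/f and 5225 and 11800 FPKM in Sox4-MKO, and mt-Nd1, a complex I subunit, 25720 and 28230 against 21260 and 22640. Both genes, named after their values were seen, were lower in each Sox4-MKO mouse without passing the test. A library made from mRNA does not measure mtDNA copies.

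A list of transcription factors and other proteins linked to the PGC1 coactivators (the partner factors), not all of them docking sites, was taken next. Of 23 tested, 7 were lower (30.4%, beside 8.28% of all genes), with a median of -0.15. Another 2 were higher (8.7%), near the 7.95% of all genes. Ppara, the fatty acid oxidation receptor, was at 114.6 and 130.2 FPKM in Sox4f/f and 57.7 and 66.4 FPKM in Sox4-MKO (log2 fold change -0.97). The retinoid receptor Rxrb was also lower, at -0.58. Its relatives, named after their values were seen, went both ways, with Rxrg lower (-0.42) and Rxra higher (0.49). Mef2c, a factor of muscle gene programmes, measured 5.02 and 6.77 FPKM in Sox4f/f and 33.3 and 16.6 FPKM in Sox4-MKO (1.84). Of 24 enzymes, coactivators, corepressors and other factors linked to PGC1 (the modifiers), 5 were lower and 1 higher, at a median of -0.12. These are 20.8% and 4.2%, again beside 8.28% and 7.95% of all genes. The count of 5 lower was clearly smaller in 8 of the 15 alternative settings, some of them with all libraries kept. The mitochondrial deacetylase Sirt3 (-0.64) and the coactivator Ncoa3 (-0.50) were lower. Prkaa2, an AMPK catalytic subunit abundant in muscle, was higher at 18.8 and 7.56 FPKM against 4.30 and 5.23. For both Mef2c and Prkaa2 the highest value lay in Sox4-MKO mouse 1, which also held the most muscle marker RNA. The part of muscle RNA in their values was not tested. The number of partner factors called lower was 1 without Sox4f/f mouse 1 and 4 without Sox4-MKO mouse 1. That of the modifiers was 0 without Sox4f/f mouse 1, 1 without Sox4-MKO mouse 1 or Sox4f/f mouse 2, and it was 3 without Sox4-MKO mouse 2.

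Nuclear genes that textbooks give as targets of Nrf1 and GABPA, mostly subunits of complexes II and IV, were lower in large part, while Nrf1 and Gabpa were not called. Of 19 tested, 11 were lower (57.9%, beside 8.28% of all genes) and 0 higher, with a median of -0.43. For 15 (78.9%), both Sox4-MKO mice were under both controls, beside 29.6% of all genes. Cox6a1 measured 2803 and 2418 FPKM in Sox4f/f and 1598 and 1629 FPKM in Sox4-MKO (log2 fold change -0.69), Cox8a differed by -0.62 and Alas1, the first enzyme of haem synthesis, by -0.58. The count depended on single libraries, at 1 without Sox4f/f mouse 1, 2 without Sox4f/f mouse 2 and 6 without Sox4-MKO mouse 2, whereas leaving out Sox4-MKO mouse 1 gave 13. It was 3 after quantile normalization, where the median was -0.22, and 6 with a replicate block.

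**Figure D4:**
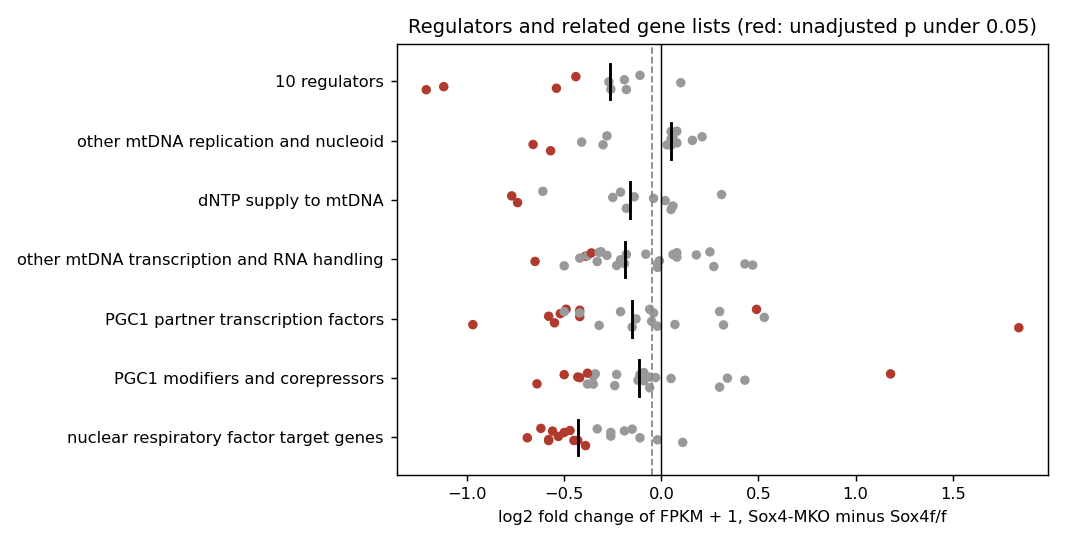
Log2 fold change of FPKM + 1 of each tested gene in 7 lists, 1 point per gene, red where the unadjusted limma p is under 0.05, with a black tick at the list median and a dashed line at the median of all genes. The regulators and the respiratory factor targets lie mostly left of the dashed line, and the only red points above 0 are among the partner factors and the modifiers.

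Markers of other cell types moved with genotype too. Their counts below stand beside 8.28% of all tested genes called lower and 7.95% called higher. The 12 skeletal muscle markers summed to 246.3 and 902.9 FPKM in Sox4f/f and 16910 and 3250 FPKM in Sox4-MKO, which was 0.0426% to 3.42% of all FPKM, and 10 of the 12 were higher (5 without Sox4-MKO mouse 1, 4 without Sox4f/f mouse 1). Muscle expresses the regulators as well. Fibroblast and progenitor markers (7 of 7 higher, sums of 271.3 and 312.3 against 665.3 and 617.6), macrophage markers (8 of 10 higher, 3 or 4 without Sox4f/f mouse 1 or a Sox4-MKO mouse, 220.9 and 324.3 against 456.1 and 448.2) and white adipocyte markers (4 of 6 higher, 2 without Sox4f/f mouse 2, 218.1 and 168.6 against 552.2 and 619.2) also differed. Brown adipocyte markers summed to 8250 and 8056 FPKM in Sox4f/f and 4229 and 4862 FPKM in Sox4-MKO, with 6 of 11 lower (2 without Sox4f/f mouse 1) and 1 higher, and Ucp1 was at 733.5 FPKM or more and Cidea at 983.9 FPKM or more in every library. Endothelial markers (0 of 6 called, 131.2 and 167.6 against 106.6 and 154.4) and B and T cell markers (sums of 1.63 to 5.56 FPKM) showed no call. The 7 pan-adipocyte markers summed to 11800 and 11900 FPKM against 10470 and 13360, with overlap, and 2 of them, Pnpla2 and Lipe, were lower. That count of 2 held in 4 of the 15 alternative settings and was smaller in 11.

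With each library scaled to a common sum of the pan-adipocyte markers, an alternative added after the data were seen, 2 regulators were lower, Ppargc1a (log2 fold change -1.21) and Ppargc1b (-1.12). Polrmt, at -0.54 (SE 0.26), and Polg, at -0.43 (SE 0.28), were not called in this setting. In the main fit they were at -0.54 (SE 0.16) and -0.44 (SE 0.13), so the SEs rose while the fold changes hardly moved. Of all tested genes, 321 were lower and 814 higher with this scaling. Without Sox4-MKO mouse 1, the library with the most muscle marker RNA, Ppargc1b was at -1.0 and Polg at -0.49, both called, while Ppargc1a at -1.16 and Polrmt at -0.46 lost their call. In whole tissue, fewer cells of a type and less RNA per cell cannot be told apart. The part of muscle, stromal and immune RNA in the values of the regulators was not tested.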

How the data were processed

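RNA sequencing of BAT was performed by the authors on 4 libraries, 2 Sox4f/f and 2 Sox4-MKO, grouped by their labels. The authors deposited 1 FPKM value per gene and library. The submitters' processing notes name mm10, Cufflinks 2.1.1 and Cuffdiff, whereas the aligner and the annotation are not given in the sources used here. The labels describe a stranded mRNA kit and the methods an unstranded one, so whether counting used strand is not known.

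FPKM are no counts, so limma 3.58.1 in R 4.3.3 (lmFit, eBayes with a trended prior) was fitted with genotype alone on log2(FPKM + 1), which understates changes of low genes. The test covered 12877 genes, all 10 regulators among them, whose mean FPKM exceeded 1 in either genotype, and was two-sided with Benjamini-Hochberg adjustment. A gene is called lower or higher at an unadjusted p under 0.05. Nothing in the labels gives separate batches, and p-values measure the spread between these mice only. Depth was estimated from the value of 1 fragment in genes with 1 transcript of at least 1500 nt, and is approximate. Fragment estimates cover counting error only. Named are the 10 regulators, Sox4, the 3 genes nearest in profile to Ppargc1a and to Ppargc1b, and from each list up to 3 genes of largest absolute log2 fold change without overlap at an unadjusted p under 0.05. Genes outside this rule are marked as such in the text, overlap a regulator, or are markers given for their level. For lists of cell type markers the summed FPKM is given. The regulators and the lists were chosen with earlier results of these data known. Gene positions are those of GENCODE M21 for the same symbol. The code was tested on simulated data in which 200 of 12877 genes changed by a log2 of 1. Of these, 84.5% were called at an unadjusted p under 0.05 and 0% after adjustment. Of the unchanged genes, 5.29% were called. Results were recomputed with a replicate block, without each library in turn, with 4 other scalings, 3 other filters, pseudocounts of 0.1 and 0.01, and without the trended prior. Same-numbered libraries did not deviate together (Pearson r = -0.012 over 12877 genes), so their numbers were not taken as pairs. The ChIP sequencing of the study was not analysed here.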

Additional observations from a re-analysis of the deposited data

How the results depend on the processing

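In 15 alternatives, Ppargc1b stayed under an unadjusted p of 0.05, and Pprc1, Gabpa, Tfb2m and Twnk kept their negative sign without passing it. With 1 library left out, Nrf1 ran from -0.55 to 0.17 (positive without Sox4-MKO mouse 1), Tfam from -0.05 (without Sox4-MKO mouse 2) to 0.25, and Sox4 from -0.32 (without Sox4-MKO mouse 2) to 0.71, at -0.07 without Sox4f/f mouse 2. The number of regulators lower was 2 to 4 and 0 higher. It was 4 in every filter, pseudocount and planned scaling, 2 to 3 with 1 library left out, which leaves fewer samples, and 2 with the pan-adipocyte scaling, where the cause was not tested. Their median ran from -0.36 to -0.26 with 1 library left out. Of all genes, 404 to 1012 were lower and 445 to 1559 higher with 1 library left out, and 321 were lower with the pan-adipocyte scaling. Limma called 0 to 5 genes after adjustment with 1 library left out and 8 with the pan-adipocyte scaling. With the numbers as a replicate block, 4 regulators, 938 genes lower and 970 higher were called, with no change of call among the regulators. A lone library of a group was assumed to vary like the other group. With 2 mice each and no counts, changes of the size seen for Tfb2m or Twnk could not be told from none. No regulator passed Benjamini-Hochberg adjustment in the main fit, so the larger changes rest on unadjusted p-values.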
